A study of Saccharomyces cerevisiae with 10 samples.

Results

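The genes described here code for the subunits of the yeast proteasome and for RPN4, the transcription factor that activates them. They were chosen by name, as 14 genes of the 20S core particle, 19 genes of the 19S regulatory particle and RPN4. All 34 were found on the array, each with 1 probe set, among 5716 probe sets in all.

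The proteasome degrades proteins that carry ubiquitin chains. Its 20S core is a barrel of stacked alpha and beta rings with the proteolytic sites inside, and the 19S particle, made of a base with a ring of ATPases and a lid, binds the ubiquitin chain, removes it and threads the protein into the core. In budding yeast, Rpn4 binds a shared promoter element of most proteasome genes and is itself a very short-lived substrate of the proteasome, so that a shortage of proteasome activity raises Rpn4 and, through it, the synthesis of subunits.

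The series asked how expression differs from wild type in strains that lack a subunit of THO/TREX, the complex that couples transcription to the packaging and export of mRNA. Strains were grown in YPAD, a rich medium, harvested at mid-log phase, and their total RNA was labelled and hybridized to 10 Affymetrix arrays. Strain W303-1A served as wild type (WT, 3 arrays). The deletion strains were SChY58a (hpr1∆::kanMX4, called hpr1del, 3 arrays), DLY23 (sub2∆::HIS3, called sub2del, 2 arrays) and RK2-6C (tho2∆::KanMX4, called tho2del, 2 arrays). HPR1 and THO2 code for core THO subunits and SUB2 for the RNA helicase that joins them. All 4 strains are MATa and carry the markers ade2-1, can1-100, trp1-1 and ura3-1 together with his3-11,15 and the leu2 mutations 3 and 112, per the labels. Each deletion was represented by 1 strain, so a feature of that strain cannot be told apart from an effect of its deletion. Arrays of a strain are labelled as biological replicates, but no source used here names separate cultures, so the p-values rest on a spread that may be partly technical.

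Values are the authors' deposited intensities, linear and with an unstated scaling. The labels were checked on the deleted genes, and each was lowest where it was deleted. The intensity of HPR1 was 202 ± 12.3 (SD, n = 3) in hpr1del and 573 ± 56.4 (n = 3) in WT, SUB2 read 79.2 ± 34.8 (n = 2) in sub2del against 12371 ± 365, and THO2 read 252 ± 98.0 (n = 2) in tho2del against 2467 ± 97.5. HIS3 went against the labels, with WT arrays at 1358, 3109 and 2379.5 and all mutant arrays from 321 to 509, although every strain carries a mutant his3 allele and sub2del a HIS3 marker. Empty cells made up 0.122% to 1.155% of the hpr1del arrays and of WT replicates 1 and 3, and 7.243% to 14.188% of WT replicate 2 and the sub2del and tho2del arrays.

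The sub2del arrays stood apart by chromosome. On them the median of all named probe sets, as log2(intensity + 16) relative to the WT mean, was 0.472 and 0.419 for chromosome II and 0.594 and 0.566 for chromosome X, while the other 14 chromosomes had medians from -0.398 to -0.093. For hpr1del and tho2del against WT the medians of chromosomes II and X lay between -0.095 and -0.01, within the range of the other chromosomes. Of the members, PRE7 lies on chromosome II and PRE3 on chromosome X. Both had empty cells on each sub2del array, so the 30 members tested in sub2del all lie on chromosomes with medians below 0. DNA copy number was not measured, and its part in the sub2del values was not tested.

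**Figure D1:**
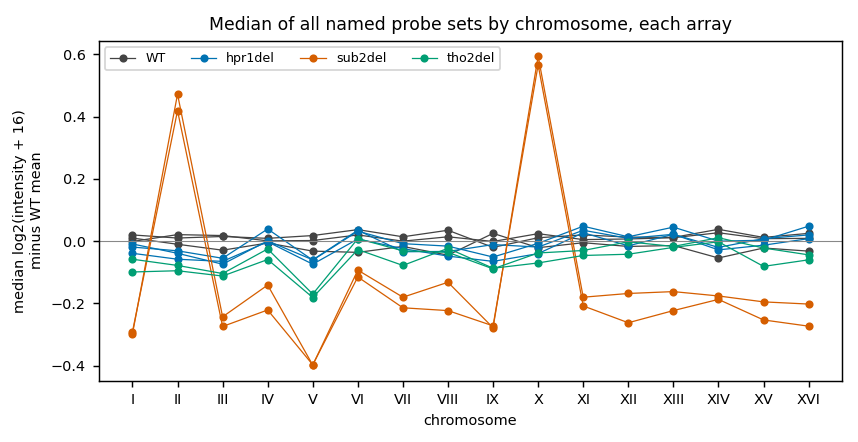
Median of log2(intensity + 16) minus the WT mean over all named probe sets of each chromosome (y axis) for the 16 chromosomes (x axis), with 1 line for each of the 10 arrays, coloured by strain. Both sub2del arrays rise to 0.419 or above on chromosomes II and X and lie at -0.093 or below on the other chromosomes.

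Tests below are limma fits on log2(intensity + 16) over all 10 arrays and all probe sets, with Benjamini-Hochberg adjustment, and a gene was called where the adjusted p was under 0.05. A log2 difference is given with its standard error (SE) and a fold is that of (intensity + 16). The comparisons with WT all use the same 3 WT arrays and are not independent of each other. In cultures, a change per cell and a change in the mix of cells cannot be told apart.

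RPN4, the activator, had intensities of 3320.4, 2962 and 2522 on the WT arrays. It read 5646, 6023 and 6472 in hpr1del, 7207 and 6571 in sub2del, while tho2del had 7609 and 8183. Every mutant array lay above every WT array, and both tho2del arrays lay above all other arrays. RPN4 rose by a log2 difference of 1.05 ± 0.11 in hpr1del (2.06-fold, limma adjusted p = 0.000144), 1.23 ± 0.12 in sub2del (2.35-fold, limma adjusted p = 3.88e-05) and 1.43 ± 0.12 in tho2del (2.70-fold, limma adjusted p = 2.35e-05). It had a larger log2 difference than every other member in each of these comparisons, though RPN11 came to the same 2 decimals in sub2del, and lay above 97.1%, 97.2% and 98.1% of all probe sets tested. Between mutants, RPN4 was higher in tho2del than in hpr1del by 0.39 ± 0.12 (limma adjusted p = 0.0321), a call that was lost without hpr1del replicate 1 (0.337) or 2 (0.384), without either tho2del array (0.438 and 0.333) and with 2 of the alternatives given at the end. Its differences of sub2del from hpr1del (0.19 ± 0.12, limma adjusted p = 0.212) and from tho2del (-0.20 ± 0.13, limma adjusted p = 0.303) did not pass.

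Most subunit genes rose in each mutant as well, by less than RPN4. In hpr1del 27 of 34 members were higher and 0 lower, where 22.8% of all 5663 probe sets tested were called higher and 22.8% lower. In sub2del 25 of 30 tested members were higher and 0 lower, against 20.9% and 40.4% of 4801 probe sets, and against 16.4% and 43.9% of those not on chromosomes II or X, where the tested members lie. In tho2del 25 of 32 were higher and 0 lower, against 24.5% and 32.9% of 4752 probe sets. At an unadjusted limma p under 0.05 the number of lower members was also 0 in each. Median log2 differences of the members were 0.37, 0.51 and 0.36 in hpr1del, sub2del and tho2del, and those of all probe sets were -0.01, -0.16 and -0.06. After array medians were subtracted the median of all probe sets in sub2del moved to -0.03 and that of the members to 0.65. The arrays of mutant and WT did not overlap, with the mutant higher, for 31 of 34 members in hpr1del, 27 of 30 in sub2del and 26 of 32 in tho2del, where 29.1%, 25.2% and 29.9% of all probe sets did so. WT arrays varied most: the mean log2 SD over the subunits was 0.085 there, while hpr1del had 0.038, sub2del 0.071 and tho2del 0.056.

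**Figure D2:**
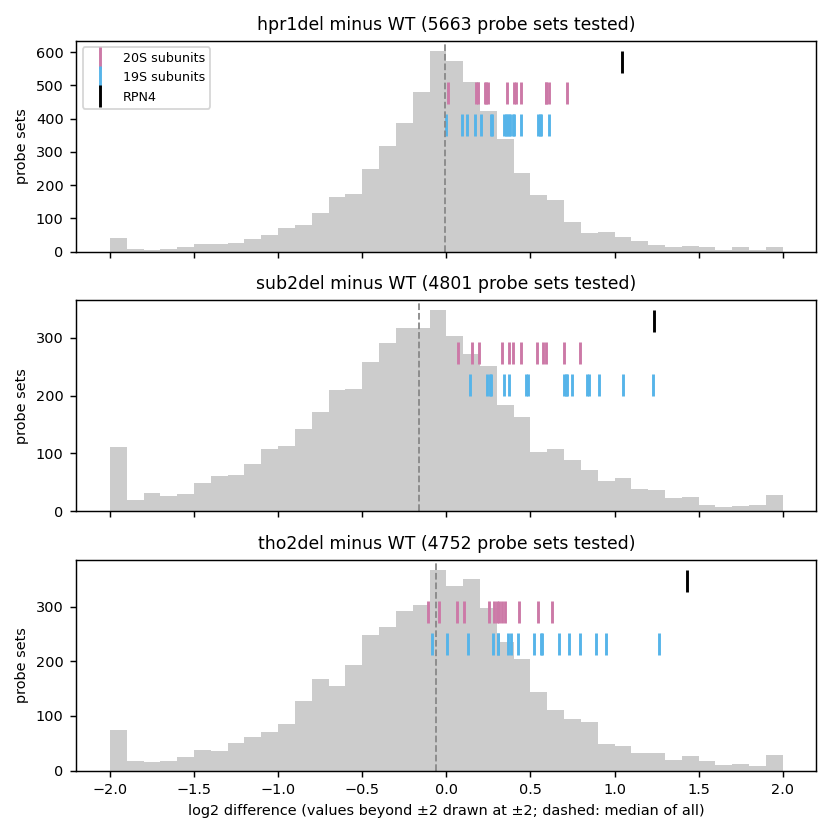
Log2 differences of the 3 mutants from WT (x axis) for all probe sets tested (grey histogram, y axis in probe sets), with the 20S subunits, 19S subunits and RPN4 as coloured ticks and the median of all probe sets as a dashed line. The ticks lie mostly to the right of that line, and RPN4 is the rightmost in each panel, at 1.05, 1.23 and 1.43.

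WT replicate 2 resembled the sub2del and tho2del arrays in its share of empty cells, so comparisons within arrays of similar share were also made. Against WT replicates 1 and 3 alone, hpr1del had 27 of 34 members higher by limma with a median of 0.38, where 21.3% of all probe sets were called higher and 20.9% lower. Against WT replicate 2 alone, with no test, the mean of the sub2del arrays was above for 29 of 30 members (median 0.515, where 39.1% of all probe sets were above) and that of the tho2del arrays for 26 of 32 (median 0.367, where 45.8% were above). RPN4 differed by 1.06, 1.21 and 1.41 on these terms in hpr1del, sub2del and tho2del.

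**Figure D3:**
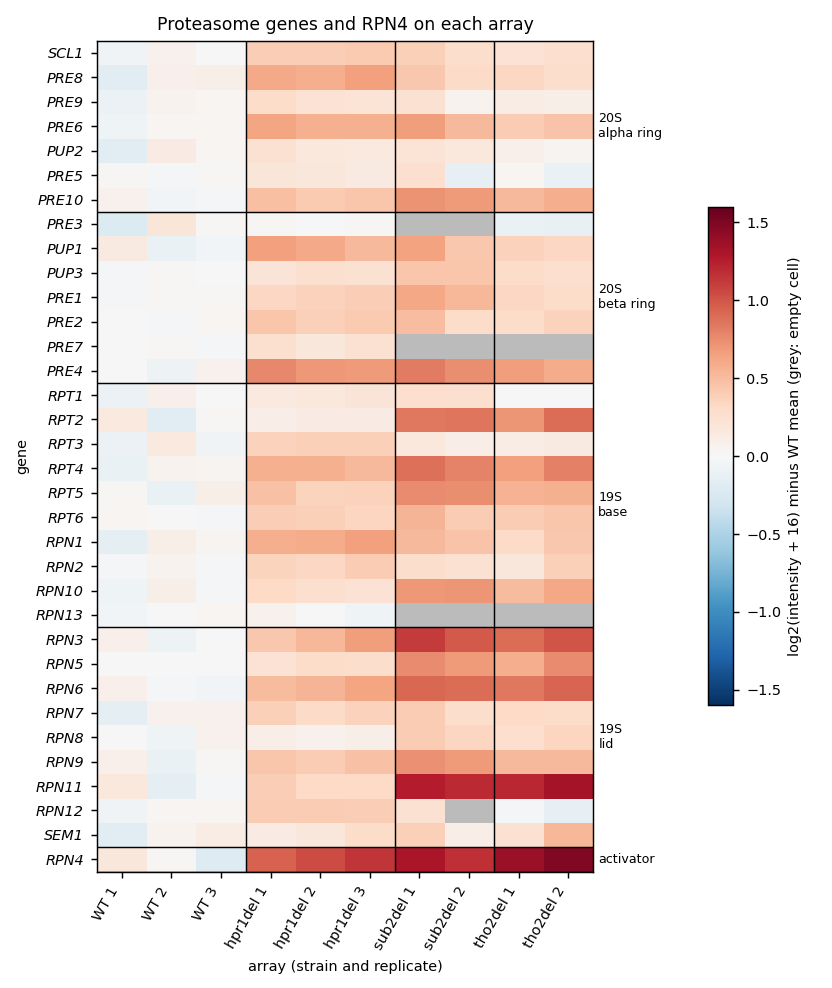
Log2(intensity + 16) minus the WT mean (colour scale) for the 34 genes (rows, grouped by subcomplex) on the 10 arrays (columns), with empty cells in grey. Most rows turn red in all 3 mutants, RPN4 and RPN11 most in sub2del and tho2del, while PRE3, PRE5, PUP2 and RPN13 stay pale where they have values. PRE3 has no value in sub2del, and RPN13 has none in sub2del or tho2del.

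The alpha ring of the 20S core forms the gate through which substrates enter. Of its 7 genes, 5 rose in hpr1del and 4 each in sub2del and tho2del, with none lower, and the median log2 differences were 0.40, 0.33 and 0.25. Beside this and the subcomplex counts below, 22.8%, 20.9% and 24.5% of all probe sets were higher in hpr1del, sub2del and tho2del. Off chromosomes II and X the share in sub2del was 16.4%. PRE8 read 4786, 5692 and 5739.8 in WT, 8175, 8103 and 8469 in hpr1del, 7285 and 6686 in sub2del, with 6757 and 6536 in tho2del. All mutant arrays were above all WT arrays, and hpr1del was highest. Its log2 difference was 0.61 ± 0.08 in hpr1del (limma adjusted p = 0.00055), 0.37 ± 0.09 in sub2del (limma adjusted p = 0.00708) and 0.30 ± 0.09 in tho2del (limma adjusted p = 0.0201). PRE6 rose by 0.59, 0.59 and 0.43, and PRE10 by 0.45, 0.70 and 0.55 in hpr1del, sub2del and tho2del. SCL1 rose by 0.40, 0.33 and 0.25. PRE9, the only 20S subunit gene that yeast can live without, rose in hpr1del (0.25 ± 0.07, limma adjusted p = 0.0205) and differed by 0.15 and 0.11 in sub2del and tho2del without passing. PUP2 (0.19, 0.19 and 0.06) and PRE5 (0.17, 0.07 and -0.04) did not pass in any of these mutants. The PRE5 value in sub2del rests on single arrays: it was 0.271 and passed without sub2del replicate 2 (limma adjusted p = 0.0381), and was -0.135 without replicate 1.

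The beta ring carries the proteolytic sites. Of its 7 genes, 6 of 7 tested rose in hpr1del, 5 of 5 in sub2del and 5 of 6 in tho2del, and the medians were 0.36, 0.54 and 0.32. PRE4 had a larger difference than any other 20S gene in each mutant. It read 4459.9, 4216 and 4662 in WT, 7571, 7223 and 7137 in hpr1del, 7938 and 7478 in sub2del, while tho2del had 7043 and 6726, so no mutant array came near a WT array. The log2 differences were 0.72 ± 0.07 (1.64-fold, limma adjusted p = 8.04e-05), 0.79 ± 0.07 (1.73-fold, limma adjusted p = 2.82e-05) and 0.63 ± 0.07 (1.55-fold, limma adjusted p = 0.000116) in hpr1del, sub2del and tho2del. Of the genes for the active-site subunits, PUP1 (trypsin-like) rose by 0.60, 0.54 and 0.35 and PRE2 (chymotrypsin-like) by 0.42, 0.39 and 0.33. PRE3 (caspase-like) read 6122, 6033 and 6113 in hpr1del and 5625 and 5591 in tho2del, against 5208, 6949 and 6132 in WT. The WT arrays spanned the values of both mutants, and the log2 differences of 0.01 ± 0.10 and -0.11 ± 0.11 did not pass (limma adjusted p = 0.955 and 0.439). Without WT replicate 1, PRE3 was called lower in tho2del (-0.218, limma adjusted p = 0.0359). PUP3 and PRE1 rose by 0.24 and 0.36 in hpr1del, by 0.45 and 0.58 in sub2del, and by 0.29 and 0.31 in tho2del. PRE7 rose in hpr1del by 0.23 ± 0.06 (limma adjusted p = 0.0233) and had empty cells on all sub2del and tho2del arrays.

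The 19S base holds 6 ATPases (RPT1 to RPT6), the scaffolds Rpn1 and Rpn2, and the ubiquitin receptors Rpn10 and Rpn13. Of its 10 genes, 8 rose in hpr1del, 8 of 9 tested in sub2del and 7 of 9 in tho2del, with medians of 0.37, 0.49 and 0.43. RPT2, whose product helps to open the core, read 5334, 4215 and 4862 in WT and 5157, 5256 and 5217 in hpr1del. It read 8618 and 8642 in sub2del, with 7794 and 8868 in tho2del, so that hpr1del lay within the WT range and the other mutants far above it. RPT2 rose in sub2del by 0.85 ± 0.10 (1.80-fold, limma adjusted p = 0.00013) and in tho2del by 0.80 ± 0.10 (1.74-fold, limma adjusted p = 0.000239), and its difference in hpr1del was 0.12 ± 0.09 (limma adjusted p = 0.303). RPT4 rose by 0.56, 0.84 and 0.73 and RPT5 by 0.40, 0.75 and 0.57 in hpr1del, sub2del and tho2del. RPT6 rose by 0.37, 0.47 and 0.43.

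RPT3 had the opposite order. It read 3942, 4693 and 4055 in WT, 5450.3, 5492 and 5509 in hpr1del, 4758 and 4539 in sub2del, while tho2del had 4568 and 4655. The hpr1del arrays lay above all others, and WT replicate 2 above both tho2del arrays. RPT3 rose in hpr1del (0.38 ± 0.08, limma adjusted p = 0.00379), while its differences of 0.14 and 0.13 in sub2del and tho2del did not pass. In sub2del RPT3 passed after array medians were subtracted (0.278), with array weights (0.19) and without WT replicate 2 (0.216). RPT1 rose in hpr1del (0.17, limma adjusted p = 0.0482) and sub2del (0.26, limma adjusted p = 0.0102) and differed by 0.00 in tho2del.

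RPN1 rose by 0.61 ± 0.08 in hpr1del (1.53-fold, limma adjusted p = 0.000374), and by 0.49 and 0.37 in sub2del and tho2del. RPN2 rose by 0.36, 0.26 and 0.28. RPN10 rose by 0.27 in hpr1del, 0.70 in sub2del and 0.57 in tho2del. RPN13 read 3404, 3549 and 3607 in WT and 3687, 3505 and 3365 in hpr1del. The groups overlapped, with a log2 difference of -0.00 ± 0.07 (limma adjusted p = 0.994), and its cells were empty on all sub2del and tho2del arrays.

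The lid removes the ubiquitin chain. Of its 9 genes, 7 rose in hpr1del, 7 of 8 tested in sub2del and 8 of 9 in tho2del, and the medians were 0.36, 0.71 and 0.52. RPN11, the gene of the deubiquitinating enzyme, read 2784, 2253 and 2444 in WT and 3273, 3107 and 3097 in hpr1del. It read 5969 and 5726 in sub2del, with 5767 and 6249 in tho2del. The 4 strains formed 3 levels with no overlap, WT lowest, hpr1del next, and sub2del with tho2del highest. The log2 differences from WT were 0.34 ± 0.09 (limma adjusted p = 0.0106) in hpr1del, 1.23 ± 0.09 (2.35-fold, limma adjusted p = 1.28e-05) in sub2del and 1.27 ± 0.09 (2.41-fold, limma adjusted p = 1.41e-05) in tho2del.

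RPN3 and RPN6, scaffold genes of the lid, followed RPN11. RPN3 read 3495, 3110.1 and 3304 in WT, 4472, 4777 and 5262 in hpr1del, 7185 and 6553 in sub2del, while tho2del had 6153 and 6643. It rose by 0.55 ± 0.08, 1.05 ± 0.09 and 0.95 ± 0.09 (limma adjusted p = 0.00103, 2.5e-05 and 5.08e-05). RPN6 read 4313, 3988 and 3959 in WT, 5818, 5973 and 6335 in hpr1del, 7750.0 and 7608 in sub2del, with 7329 and 7835 in tho2del, and rose by 0.56 ± 0.07, 0.91 ± 0.07 and 0.89 ± 0.07. Each of these genes thus had all mutant arrays above all WT arrays. RPN5 rose by 0.27, 0.72 and 0.67 and RPN9 by 0.44, 0.71 and 0.52. RPN7 rose by 0.36, 0.34 and 0.30. RPN8, the partner of RPN11, differed by 0.09 in hpr1del without passing (limma adjusted p = 0.246) and rose by 0.37 and 0.31 in sub2del and tho2del.

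RPN12 and SEM1 are the remaining lid genes. RPN12 read 4325, 4571 and 4570.3 in WT, 5939, 5932 and 5922 in hpr1del and 4384 and 4086 in tho2del, with 5312 on the only filled sub2del array. It rose in hpr1del by 0.40 ± 0.06 (limma adjusted p = 0.00148), and in tho2del its difference was -0.08 ± 0.07 (limma adjusted p = 0.316). SEM1, a small lid subunit also found in the TREX-2 export complex, rose in tho2del (0.38 ± 0.13, limma adjusted p = 0.0306), where its arrays read 3051 and 3737 against 2293, 2688 and 2794 in WT. Its differences of 0.20 ± 0.12 in hpr1del (limma adjusted p = 0.182) and 0.24 ± 0.13 in sub2del (limma adjusted p = 0.133) did not pass.

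**Figure D4:**
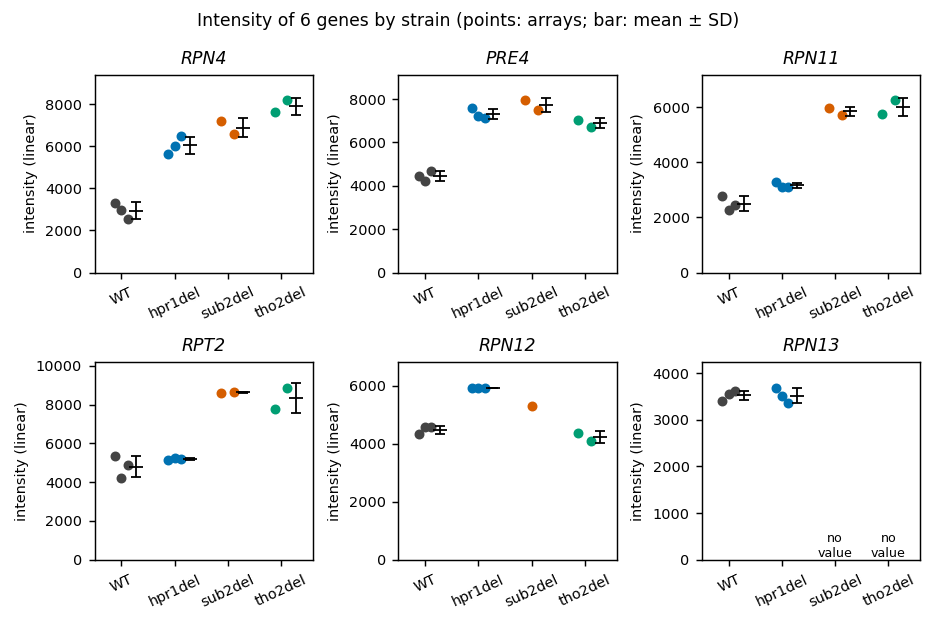
Linear intensity (y axis, from 0) of 6 genes by strain (x axis), with a point for each array and a bar for the mean ± SD where a strain has 2 or more values. RPN4 and PRE4 are raised in all mutants, RPN11 and RPT2 most in sub2del and tho2del, RPN12 in hpr1del but not in tho2del, and RPN13 has no value in sub2del or tho2del.

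Direct comparisons of the mutants asked whether the subunits responded alike in each. Here the WT arrays do not enter the estimated difference, but they do enter the spread behind its standard error and p-value. The fits with only the arrays compared, given at the end, leave WT out of both. Empty cells made up 0.122% to 0.21% of the hpr1del arrays and 8.38% to 14.188% of the sub2del and tho2del arrays. By themselves, comparisons with hpr1del cannot tell a difference between strains from one between these sets of arrays. Of 30 members tested, 13 were higher and 1 lower in sub2del than in hpr1del, where 16.1% of all probe sets were higher and 35.9% lower, and off chromosomes II and X 10.4% and 39.5%. Of 17 tested 19S genes 10 were higher, and of 12 tested 20S genes 3 were, with medians of 0.28 and -0.01 against -0.16 for all probe sets. RPN11 was higher by 0.89 ± 0.09 (1.85-fold, limma adjusted p = 0.000154), RPT2 by 0.73 ± 0.10 (1.65-fold, limma adjusted p = 0.0006), RPN3 by 0.51 ± 0.09 and RPN5 by 0.45 ± 0.07. RPN10 (0.43), RPT5 (0.35), RPN6 (0.35), RPN8 (0.28), RPT4 (0.28), RPN9 (0.27), PRE10 (0.26), PRE1 (0.21) and PUP3 (0.21) were also higher. RPT3 was lower by a log2 difference of -0.24 ± 0.08 (limma adjusted p = 0.0401), which did not pass after array medians were subtracted (-0.159) or without any 1 of the hpr1del, sub2del or tho2del arrays (-0.272 to -0.204). At the low end, PRE8 and RPN1 differed by -0.24 and -0.12 without passing. PRE8 was called lower, at -0.24 to -0.233, with 5 alternatives: without the dimmest 25% of probe sets, with only the arrays compared, with array weights, and without WT replicate 1 or 2. Without sub2del replicate 1, which leaves 1 sub2del array, fewer members were called, and fewer of all probe sets as well.

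Between tho2del and hpr1del 8 of 32 members were higher and 3 lower, where 15.5% and 22.6% of all probe sets were. RPN11 (0.92 ± 0.09, 1.90-fold, limma adjusted p = 0.000223), RPT2 (0.67 ± 0.10, limma adjusted p = 0.00145), RPN3 (0.40), RPN5 (0.40), RPN6 (0.33), RPN10 (0.30), RPN8 (0.22) and RPN4 were higher. The 3 lower genes were RPN12 (-0.49 ± 0.07, limma adjusted p = 0.00141), PRE8 (-0.31 ± 0.09, limma adjusted p = 0.0274) and RPT3 (-0.25 ± 0.08, limma adjusted p = 0.0426). Of 18 tested 19S genes 7 were higher and 2 lower, and of 13 tested 20S genes 0 were higher, also at an unadjusted limma p under 0.05, and 1 was lower. Medians were 0.17 and -0.12, against -0.04 for all probe sets. The number of calls was sensitive to single arrays. It was 7 in all without any 1 of the hpr1del arrays, where 26.9% to 29% of all probe sets were called, against 38.1% with all arrays. The number also fell without either tho2del array, as did the calls among all probe sets. Without tho2del replicate 2 the call of RPN3 was also lost (0.349). The calls of PRE8 and RPT3 were lost without any 1 of these 5 arrays (-0.335 to -0.287 and -0.263 to -0.236), and that of RPT3 also without either sub2del array (-0.249).

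Between sub2del and tho2del 2 of 30 members were called, PRE1 (0.26 ± 0.07, limma adjusted p = 0.0246) and RPT1 (0.26 ± 0.07, limma adjusted p = 0.04), both higher in sub2del, where 8.78% of all probe sets were called higher and 13.1% lower. Off chromosomes II and X, where the tested members lie, 1.24% were higher and 14.5% lower. Neither call held without any 1 of the sub2del or tho2del arrays, or without hpr1del replicate 2 or 3, and that of RPT1 was also lost without hpr1del replicate 1. RPT1 (0.256) lost its call without WT replicate 3 and without probe sets of chromosomes II and X as well, and PRE1 (0.263) with only the arrays compared. RPN11 differed by -0.04 ± 0.10, RPT2 by 0.05 ± 0.11 and RPN3 by 0.10 ± 0.10, differences of about 1 SE or less. RPN9 and PUP1 were higher by 0.19 each, and SEM1 was lower by a log2 difference of -0.14, without passing.

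**Figure D5:**
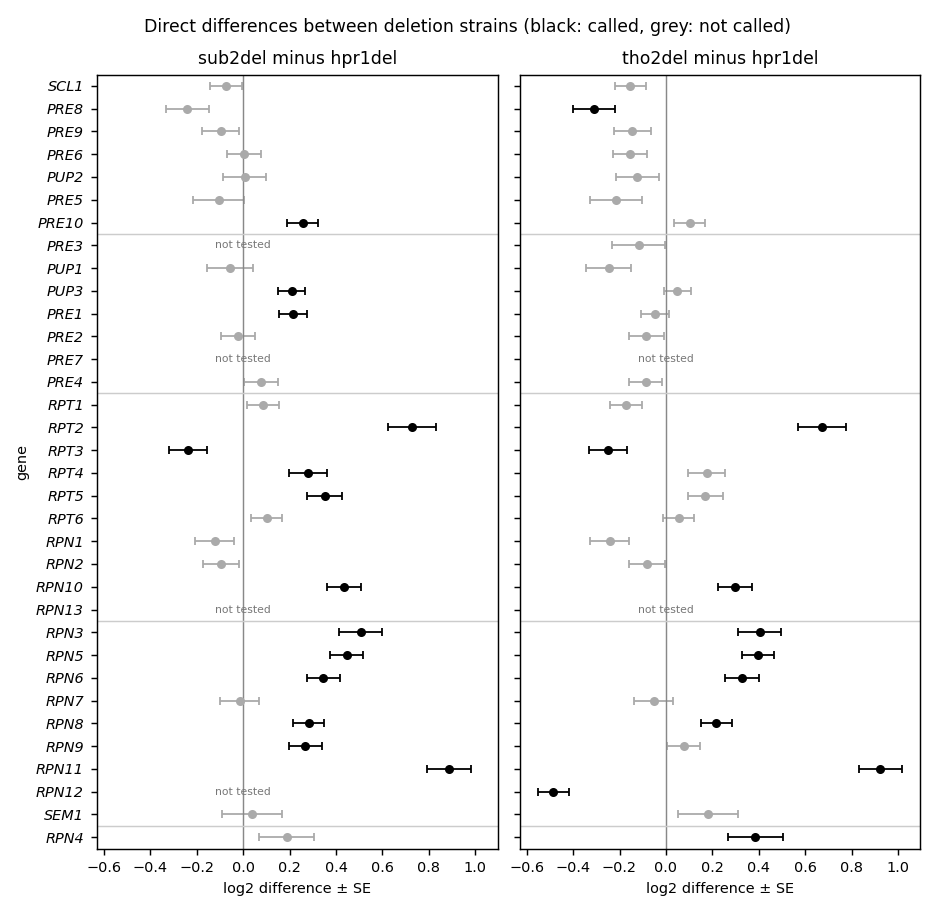
Log2 difference ± SE (x axis) of each of the 34 genes (y axis, grouped by subcomplex) between sub2del and hpr1del (left) and between tho2del and hpr1del (right), in black where called and grey where not. RPN11 and RPT2 lie farthest to the right in both panels, at 0.89 and 0.73 on the left and 0.92 and 0.67 on the right, where both panels share the hpr1del arrays.

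The 20S genes are 597 to 867 bp long and the 19S genes 270 to 2982 bp in the R64 gene table. Both short and long 19S genes were among those that did not differ between mutants past the threshold, and the called 19S genes lay between. RPT6 (1218 bp) and RPN7 (1290 bp) also lay there and were not called, and RPN13 (471 bp) could not be tested between mutants. A part of gene length in these differences was not tested. RPN11 (921 bp) and RPT2 (1314 bp) were higher in sub2del and tho2del than in hpr1del, RPT3 (1287 bp) was lower, and the long RPN1 (2982 bp) and RPN2 (2838 bp) differed by -0.12 and -0.10 in sub2del and by -0.24 and -0.08 in tho2del without passing. SEM1 (270 bp), the shortest, differed by 0.04 and 0.18 without passing.

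The lists of related genes below were counted against the shares of all probe sets, which for hpr1del were 22.8% higher and 22.8% lower, for sub2del 20.9% and 40.4%, and for tho2del 24.5% and 32.9%. For probe sets not on chromosomes II or X in sub2del they were 16.4% and 43.9%. Of 17 genes that assemble the proteasome or bind it, 7 rose and 3 fell in hpr1del, 4 of 16 tested rose and 7 fell in sub2del, and 4 of 15 rose and 5 fell in tho2del, with medians of 0.02, -0.12 and -0.05. The counts in sub2del and tho2del lie close to the shares of all probe sets. UMP1, a chaperone of 20S assembly, read 1542, 1873 and 1679 in WT, 2574, 2527 and 2619 in hpr1del, 2718 and 2488 in tho2del, and 6167 and 5921 in sub2del. It rose by 0.60 ± 0.08 in hpr1del and 0.61 ± 0.09 in tho2del and by 1.83 ± 0.09 in sub2del (3.55-fold, limma adjusted p = 1.94e-06), and was 1.23 ± 0.09 higher in sub2del than in hpr1del (limma adjusted p = 2.95e-05). UMP1 lies on chromosome II, as does HSM3, a chaperone gene of the 19S base that rose by 0.90 ± 0.09 in sub2del, so the raised median of that chromosome in sub2del stands beside both values, and its part in them was not tested. Of the 14 tested genes of this list on other chromosomes, 2 rose and 7 fell in sub2del, also close to the shares of all probe sets there.

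RPN14, another chaperone gene of the 19S base, fell in each mutant. It read 1044, 947 and 922 in WT, 739, 637 and 646 in hpr1del, 382 and 404 in sub2del, while tho2del had 487 and 463, with log2 differences of -0.52 ± 0.08, -1.27 ± 0.09 and -1.01 ± 0.09 (limma adjusted p = 0.00111, 8.48e-06 and 3.30e-05). SPG5, whose product binds the proteasome in stationary phase, rose by 1.30 ± 0.12 in hpr1del, 1.02 ± 0.13 in sub2del and 1.23 ± 0.13 in tho2del. ECM29, which codes for a protein that tethers core and regulatory particle, rose by 0.29 ± 0.09, 1.02 ± 0.11 and 0.83 ± 0.11. CIC1, named as a proteasome adaptor and also needed to make ribosomes, rose by 0.48 ± 0.07 in hpr1del and 0.38 ± 0.08 in tho2del and differed by 0.13 in sub2del without passing.

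Of 12 genes for the Cdc48 segregase, which extracts ubiquitylated proteins, and for shuttle receptors, 8 rose and 1 fell in hpr1del, 3 of 9 tested rose and 2 fell in sub2del, and 3 of 10 rose and 2 fell in tho2del, with medians of 0.29, 0.17 and 0.12. The number that rose in hpr1del stood above the share of all probe sets, while in sub2del and tho2del the counts are too small to set apart from the shares. UFD1, a cofactor of Cdc48, read 1416, 1427 and 1272 in WT, 2216, 2040.2 and 2041 in hpr1del, 2679 and 2427 in sub2del, with 2549 and 2615 in tho2del. It rose by 0.61 ± 0.07, 0.89 ± 0.08 and 0.91 ± 0.08 (limma adjusted p = 0.000322, 3.11e-05 and 3.62e-05). DSK2, a shuttle receptor gene, rose by 0.49, 0.58 and 0.40. UBX2, a membrane adaptor of Cdc48, fell in hpr1del (-0.42 ± 0.09), sub2del (-0.85 ± 0.10) and tho2del (-0.74 ± 0.10). UBX4 rose in hpr1del by 0.63 ± 0.09 and NPL4 in tho2del by 0.48 ± 0.11. SHP1 rose by 0.39 in hpr1del and 0.84 in sub2del and lies, like NPL4, on chromosome II.

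Of 20 genes of ubiquitin and its conjugation, 5 rose and 2 fell in hpr1del, 3 of 17 tested rose and 5 fell in sub2del, and 2 of 16 rose and 7 fell in tho2del, and the medians were 0.08, 0.02 and -0.13. These counts are not set apart from the shares of all probe sets. RSP5, an essential ubiquitin ligase gene, fell in sub2del (-1.06 ± 0.14) and tho2del (-0.94 ± 0.14), DOA4, a deubiquitinase gene, fell in sub2del (-0.84 ± 0.11) and tho2del (-0.36 ± 0.11), and TOM1, a ligase gene linked to mRNA export, fell in hpr1del (-0.47 ± 0.07), sub2del (-0.61 ± 0.08) and tho2del (-0.53 ± 0.08). SSM4, a ligase gene of the endoplasmic reticulum, fell in hpr1del (-0.47 ± 0.09) and differed by 0.10 and -0.03 in sub2del and tho2del without passing. UBC5, a conjugating enzyme gene, rose in hpr1del (0.20 ± 0.06) and fell in sub2del (-0.35 ± 0.07) and tho2del (-0.32 ± 0.07). RAD6 and UBC1, ubiquitin-conjugating enzyme genes, rose in hpr1del (0.42 ± 0.06 and 0.51 ± 0.09). UBR2, the ligase gene for the turnover of Rpn4, rose in tho2del (0.43 ± 0.08, limma adjusted p = 0.00245) and differed by -0.14 in hpr1del without passing. The conjugation genes UBP14 and UBC4, higher in sub2del by 0.92 ± 0.07 and 0.55 ± 0.06, lie on chromosome II. Of the 15 tested genes of this list on other chromosomes, 1 rose in sub2del and 5 fell, where 16.4% of probe sets off chromosomes II and X were higher and 43.9% lower. The one that rose was the ligase gene UFD4 (0.26 ± 0.08).

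Among the genes of factors known to activate RPN4, the members of the list went different ways. PDR3 read 873, 1228 and 1166 in WT and fell to 341, 281 and 289 in hpr1del, 556 and 580.2 in sub2del, while tho2del had 308 and 235. No mutant array reached the WT range, and the log2 differences were -1.78 ± 0.15, -0.90 ± 0.17 and -1.94 ± 0.16 (limma adjusted p = 5.67e-05, 0.00142 and 2.74e-05). PDR3 also lies on chromosome II. HSF1, the heat shock factor gene, rose by 0.65 ± 0.14 in sub2del and 0.84 ± 0.14 in tho2del and differed by 0.19 ± 0.13 in hpr1del (limma adjusted p = 0.262). YAP1, an oxidative stress factor gene, rose by 0.36 ± 0.10, 0.61 ± 0.11 and 0.48 ± 0.11 in hpr1del, sub2del and tho2del. PDR1 differed by -0.05, 0.11 and 0.12 without passing. Of 4 genes, 1 rose and 1 fell in hpr1del, 2 rose and 1 fell in sub2del, and 2 rose and 1 fell in tho2del, numbers too small to read against the shares of all probe sets. RNA levels of these genes do not measure the activity of their products.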

How the data were processed

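RNA of 4 yeast strains was hybridized to 10 Affymetrix arrays. The authors deposited 1 linear intensity per probe set and array, from 1 to 35972. How it was computed and scaled is not given in the sources used here. Depth has no meaning for arrays, whose number limits the precision. Of 5716 probe sets, 5498 had 1 gene, 0 several and 218 none in the platform annotation. Matching to the R64 gene table by identifier changed 12 symbols, 0 of them of members.

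The value analysed was log2(intensity + 16). Linear models with a mean per strain, empirical Bayes moderation and Benjamini-Hochberg adjustment over all probe sets tested were run with limma 3.58.1 in R 4.3.3, with standard errors computed for each pattern of empty cells. Probe sets with at least 2 values in each strain compared were tested. The steps were tested on simulated data. Alternatives were other offsets (1 and 64), quantile normalization, subtracted array medians, leaving out the dimmest 25% of probe sets, only the arrays compared, array weights, probe sets with 10 values, a replicate block, a block of arrays with over 5% empty cells, and leaving out each array. Leaving out probe sets of chromosomes II and X, and hpr1del against WT replicates 1 and 3, were added after the data were seen. Array weights were 0.104 and 0.217 for WT replicates 1 and 2, 6.49 for WT replicate 3 and 6.09 for hpr1del replicate 2. With these weights, comparisons with WT rest mostly on WT replicate 3.

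The members and lists were chosen with earlier results of these data known. In each comparison RPN4, the 4 highest and 3 lowest members and up to 4 genes of each other list with the lowest adjusted p were to be named. The other members, UFD4 and further values of named genes were added after their values were seen. A planned search of promoters for the Rpn4 element was not made, because no promoter sequence was used here.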

Additional observations from a re-analysis of the deposited data

Results flagged for a closer look

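RPN12, a lid subunit gene, differed between 2 deletion strains. It was higher than WT in hpr1del (0.40 ± 0.06), while in tho2del it was not called against WT (-0.08 ± 0.07, limma adjusted p = 0.316) and its arrays overlapped those of WT. The direct test of tho2del against hpr1del gave a log2 difference of -0.49 ± 0.07 (limma adjusted p = 0.00141). Both tho2del arrays lay below all 3 hpr1del arrays, and the arrays of these strains also differ in their share of empty cells. The difference was called under all 20 alternatives that could be computed, at values from -0.562 to -0.435.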

How the results depend on the processing

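The numbers of members called against WT stayed within 1.5 times of those reported under all alternatives. With at least 2 arrays left in each strain, hpr1del had 24 to 30, sub2del 21 to 29 and tho2del 19 to 26. The shares of all probe sets called also moved, from 33.9% to 76%, 46.9% to 73.5% and 41.9% to 72.5% in these strains. The reported fits had 45.6%, 61.3% and 57.5%. Under all alternatives RPN4, RPN11, RPN3, RPN6, PRE4, PRE8 and RPN1, where named against WT, kept their calls. The comparisons between mutants depended more on the settings, and the cause was not tested. Between tho2del and hpr1del the 11 calls became 20 with only the arrays compared (10 higher and 10 lower), 18 with array weights, 6 with a block of arrays with over 5% empty cells, and 4 to 15 with 1 array left out. The median of the members between tho2del and hpr1del, -0.0501, turned to 0.000129 over probe sets with 10 values. Between sub2del and tho2del there were 2 calls, with 21.9% of all probe sets called. They became 1 with only the arrays compared (28.9%) and 1 without probe sets of chromosomes II and X (11.5%). Leaving out 1 hpr1del array gave 0 or 1 (16.2% to 18%), and leaving out WT replicate 3 gave 1 (21.1%). Between sub2del and hpr1del the 14 calls became 8 to 15 with 1 array left out. Among all probe sets, calls between tho2del and hpr1del went from 1821 to 2857 with only the arrays compared or with array weights and to 1069 without tho2del replicate 2, and those between sub2del and tho2del from 983 to 388 without tho2del replicate 2.

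With the replicate number as a block, 7 of 32 members were called between tho2del and hpr1del, where 29.2% of all probe sets were. RPN4 (0.358), RPT3 (-0.262) and PRE8 (-0.279) lost their calls there. Between sub2del and tho2del 0 members were called by limma (2 at an unadjusted p under 0.05), where 15.9% of all probe sets were. PRE1 and RPT1 kept their differences of 0.263 and 0.256. Correlations of same-numbered arrays, after the mean of each strain was removed, ran from -0.203 to 0.092. With 2 or 3 arrays a strain, these values cannot settle whether the numbers pair the arrays. RPN4 (0.352) and PRE8 (-0.429) also lost their calls between tho2del and hpr1del with the empty-cell block. Between sub2del and hpr1del 11 of 30 members were called with the replicate block, where RPT3 (-0.25) lost its call and 44.6% of all probe sets were called. With the empty-cell block 10 were, beside 37.6% of all probe sets. Subtracting array medians moved the share of calls that were higher from 34% to 46.7% in sub2del against WT and from 40.2% to 70% between sub2del and tho2del. Quantile normalization moved it from 40.6% to 29.8% between tho2del and hpr1del. Leaving out probe sets of chromosomes II and X moved it from 40.2% to 6.91% between sub2del and tho2del, from 34% to 27.2% in sub2del against WT and from 30.9% to 20.9% between sub2del and hpr1del. Leaving out an array of sub2del or tho2del leaves 1 array, which is then assumed to vary like the other strains. The planned search for the Rpn4 promoter element was not run. With 2 or 3 arrays a strain, small differences may go uncalled, and PRE3, PRE7, RPN12 and RPN13 could not be tested in sub2del, nor PRE7 and RPN13 in tho2del.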
